A study of Mus musculus with 4 samples.

Results

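The naive pluripotency network genes described here are Esrrb, Klf2, Klf4, Klf5, Tfcp2l1, Tbx3, Nr5a2, Zfp42 and Prdm14, 9 of the 21631 protein-coding genes on the autosomes and X in the gene table. They were taken as a list of named genes, and all 9 were found. The assay was ATAC-seq, which uses a transposase to cut and tag open DNA, on germ cells enriched with SSEA1 beads from E14.5 ovaries (embryonic day) of female C57BL/6J fetuses, which the labels call ovarian cells. The study compared 2 samples labelled Gata2WT with 2 labelled Gata2cKO, from matings of Gata2flox/+ Prdm1-Cre males with Gata2flox/flox females. In that cross every embryo receives a floxed Gata2 allele from its mother, and the labels do not give the alleles or the Cre status of the Gata2WT embryos. Prdm1-Cre acts in the germ cell lineage from early on, and also in other cells that use Prdm1. About 10000 cells went into each library, and the labels do not say how many embryos were pooled.

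The data were 1 combined peak list per genotype, without values per replicate, so the genotypes could not be tested against each other and no p-value is given. Each peak comes with the authors' −log10 q, which measures how far the stack of fragments at its summit (the pileup) stands above the local background of the same pool. These values were not scaled between genotypes, so where both are given they stand side by side, Gata2WT first. A peak with at least 1 bp of overlap in the other list is called shared, and any other peak is called WT-only or cKO-only. A single-list peak fell short of the authors' threshold in the other list, which does not show a closed site, and fewer cells with an open site cannot be told apart from less opening per cell.

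Naive pluripotency is the state of the inner cell mass and of mouse embryonic stem cells, held by a web of transcription factors that bind each other's genes and sit downstream of LIF, WNT and OCT4-SOX2-NANOG input. The KLF zinc finger proteins, the orphan nuclear receptors ESRRB and NR5A2, TFCP2L1 and TBX3 drive this web, and Zfp42 (REX1) is its usual marker. Germ cells switch many of these genes on again after specification, with PRDM14 as an early regulator, and female germ cells leave that state as they enter meiosis.

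The RefSeq start sites show where the open sites of these genes sit. RefSeq (GRCm38.p6) gave 8 start windows for 6 of the 9 genes, each from 250 bases before to 50 bases after a start. A peak met 5 of the 8 windows in both lists and 3 in neither, beside 43.0% of 32619 windows in the genome met in both. The windows with a peak were those of Klf2, Klf4, Tfcp2l1 and Zfp42 and the inner start of Esrrb. The windows without a peak were the outer start of Esrrb and both starts of Nr5a2. The 250 bases before the start are printed below for the windows that set these genes apart, in lower case, with motif matches in capitals.
Zfp42, chr8:43307010-43307259, minus strand, peak in both lists: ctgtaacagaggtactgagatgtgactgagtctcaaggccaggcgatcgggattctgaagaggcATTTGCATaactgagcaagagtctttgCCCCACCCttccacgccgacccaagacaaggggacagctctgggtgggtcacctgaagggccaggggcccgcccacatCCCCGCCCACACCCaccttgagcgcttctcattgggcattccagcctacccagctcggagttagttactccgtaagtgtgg
Esrrb inner start, chr12:86421394-86421643, plus strand, peak in both lists: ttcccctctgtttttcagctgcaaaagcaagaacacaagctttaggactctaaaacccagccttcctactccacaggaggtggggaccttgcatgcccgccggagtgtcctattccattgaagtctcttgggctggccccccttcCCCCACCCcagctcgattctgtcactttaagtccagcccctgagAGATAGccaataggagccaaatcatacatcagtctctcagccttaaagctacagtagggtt
Esrrb outer start, chr12:86360867-86361116, plus strand, no peak: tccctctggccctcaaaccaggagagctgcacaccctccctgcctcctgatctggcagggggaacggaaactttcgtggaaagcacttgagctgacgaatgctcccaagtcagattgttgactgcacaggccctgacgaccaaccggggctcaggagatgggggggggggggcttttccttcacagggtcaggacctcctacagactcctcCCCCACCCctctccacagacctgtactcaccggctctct
Nr5a2 outer start, chr1:136960449-136960698, minus strand, no peak: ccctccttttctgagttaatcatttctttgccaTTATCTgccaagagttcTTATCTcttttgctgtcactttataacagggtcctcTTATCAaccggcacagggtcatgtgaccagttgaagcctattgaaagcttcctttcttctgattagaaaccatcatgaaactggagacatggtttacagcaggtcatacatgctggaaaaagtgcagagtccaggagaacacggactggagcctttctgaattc
Nr5a2 inner start, chr1:136953631-136953880, minus strand, no peak in the window: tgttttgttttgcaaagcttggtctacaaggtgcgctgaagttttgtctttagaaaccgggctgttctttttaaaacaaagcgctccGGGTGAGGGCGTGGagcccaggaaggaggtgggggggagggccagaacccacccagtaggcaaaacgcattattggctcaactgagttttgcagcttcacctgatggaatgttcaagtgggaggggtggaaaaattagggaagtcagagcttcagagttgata

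Capitals mark letters of 6 motifs, searched on both strands: AGATAA (or ending in G: AGATAG) and TGATAA (or ending in G: TGATAG) for GATA factors, CCNCACCC or, with G at the fifth base, CCNCGCCC for KLF proteins, ATTTGCAT for OCT factors, CAAGGTCA for ESRRB and NR5A2, GGTGTGA for T-box factors and TTCCNGGAA for STAT factors. The KLF letters also match GC boxes bound by SP factors. They were in 7 of the 8 stretches, beside 31.9% of all 32619, and every stretch but that of the outer Nr5a2 start held them. These stretches are rich in G and C at Klf4 (74.0%) and Klf2 (71.2%), beside a median of 52.4% over all stretches. The OCT letters were in the Zfp42 stretch alone, 186 to 179 bases before the start, and in 1.61% of all stretches. GATA letters were in 2 of the 8, beside 26.5% of all. The inner Esrrb start had a single match 61 to 56 bases before the start. The outer Nr5a2 start had 3 matches, 217 to 212, 200 to 195 and 164 to 159 bases before the start, a number that 1.33% of all stretches reached. Of the 434 stretches with at least 3 matches, 404 had no peak over their window in either list (93.1%), beside 53.1% of all windows. The outer Nr5a2 stretch is 43.2% G and C, below the median of 52.4%, and the part of base composition in this difference was not tested. The letters for ESRRB and NR5A2, T-box and STAT factors were in none of the 8, and in 1.34%, 3.36% and 0.920% of all stretches. A match is a description of the letters and does not show binding.

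The network genes had many peaks, and most lay in both lists. The 9 genes took 73 Gata2WT peaks and 60 Gata2cKO peaks, counting peaks within 1 kb of the gene and other peaks up to 100 kb away for which its end was the nearest coding gene end. Of the Gata2WT peaks, 52 were shared and 21 were WT-only (28.8%, Wilson 95% interval 19.7 to 40.0), beside 28.5% of all 49394 Gata2WT peaks. Of the Gata2cKO peaks, 51 were shared and 9 were cKO-only (15.0%, 8.10 to 26.1), beside 19.7% of all 44139 Gata2cKO peaks. Both shares were near those of the whole lists. With a −log10 q of at least 5 in both lists, 15 of 45 Gata2WT peaks were WT-only (33.3%, beside 20.2% of all peaks). The count of 9 cKO-only peaks was 17 of 60 when both peaks had to be covered by at least 50% (28.3%, beside 27.9% of all peaks). It was 4 of 35 with peaks up to 20 kb from a gene (11.4%, beside 19.7%). When noncoding genes could also be the nearest gene it was 5 of 33 (15.2%, beside 19.7%). The intervals cover counting error only and treat each peak as an independent draw, although the peaks cluster in 9 genes. The median gene of the 9 had 9 Gata2WT and 7 Gata2cKO peaks, against 2 and 1 over all coding genes. The 9 genes ran from 2.59 kb (Klf2) to 161 kb (Esrrb), and the part of gene length and of free space around a gene in these counts was not tested.

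**Figure D1:**
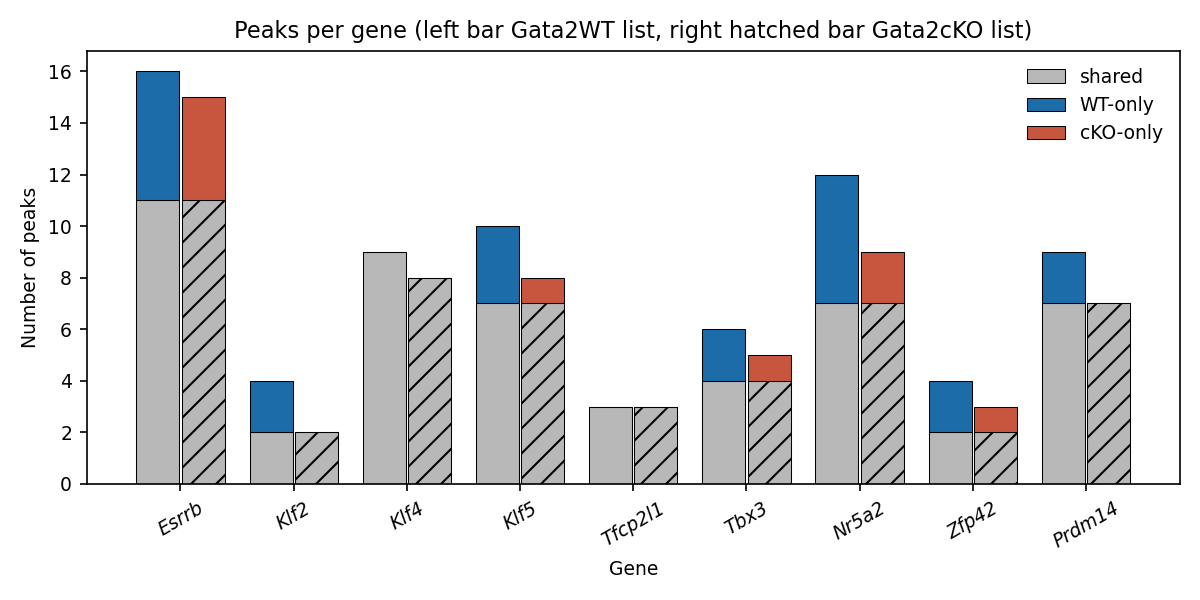
Number of peaks given to each of the 9 genes, in the Gata2WT list (left bars) and the Gata2cKO list (right bars, shared portion hatched), split into shared and single-list peaks; each bar is 1 combined list. Esrrb had the most peaks, 16 and 15, and Klf4 and Tfcp2l1 had no single-list peak in either list.

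At the ends of the genes each member had the same status in both lists, as did nearly all coding genes. A gene end is the first or last annotated base of the gene with 1 kb on either side. Klf2, Klf4, Klf5, Tfcp2l1, Tbx3, Zfp42 and Prdm14 carried a peak there in either genotype (7 of 9), beside 62.8% of all coding genes with a peak in both. Esrrb and Nr5a2 had none in either (2 of 9), beside 33.6% of all. No member had a gene-end peak in 1 list alone, and of all 21631 coding genes 13595 had one in both lists and 7258 in neither, which leaves few with one in a single list. Of the single-list peaks, 20 of the 21 WT-only and all 9 cKO-only peaks lay away from coding gene ends, close to the 13026 of 14060 and 8079 of 8710 over all single-list peaks. The exception was at Zfp42.

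Esrrb, which encodes an orphan nuclear receptor that binds and activates other genes of the network, had its open sites inside the gene. It spans chromosome 12 from 86361117 to 86521628 and had 16 Gata2WT peaks, 13 of them inside the gene and 3 outside. In the Gata2cKO list it had 15, with 11 inside and 4 outside. Of the 21631 coding genes, 115 had more Gata2WT peaks than Esrrb and 95 had more Gata2cKO peaks. The inner start carried a shared peak at 86421298 to 86422312, with its summit 108 bp past the start in Gata2WT and 164 bp in Gata2cKO and a −log10 q of 11.6 and 10.0. The strongest sites lay in the later part of the gene. The peak at 86490001 to 86490705 had a −log10 q of 31.5 and 17.3, and that at 86469912 to 86470675 had 29.1 and 31.5, with 56 and 51 fragments at the summit. A further pair at 86498431 to 86499297 had 12.6 and 16.9.

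Esrrb also held the strongest single-list peak of the network. The WT-only peak at 86473566 to 86473868 had a −log10 q of 17.4, with 43 fragments at its summit over a local background of 7.08. Of the 14060 WT-only peaks of the whole list, 20 were stronger. The nearest Gata2cKO peak was 3048 bp away. This peak was 303 bp wide, whereas the 1576 Gata2WT peaks within 10% of its −log10 q had a median width of 727 bp and a median background of 4.01, and 0.508% of them were narrower. What its narrow shape and high background contribute was not tested. The other 4 WT-only peaks of Esrrb were weak, with a −log10 q of 1.97, 2.91, 2.2 and 2.64 in order along the gene. Its 4 cKO-only peaks had 4.38, 1.20, 5.87 and 3.61. A WT-only peak at 86379539 to 86379947 and a cKO-only peak at 86380317 to 86380707 lay 370 bp apart, so the lists differed there in position as well as in presence.

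Nr5a2, the gene of the nuclear receptor LRH-1, had no peak at its ends, like Esrrb, but its peaks lay both inside and outside the gene. It spans chromosome 1 from 136842562 to 136960448. It had 12 Gata2WT peaks, 6 inside the gene and 6 outside, and 9 Gata2cKO peaks, 4 inside and 5 outside. The strongest was shared, at 136948597 to 136949624, with a −log10 q of 15.4 and 20.4. The shared peak closest to a start, at 136952659 to 136953325, had 10.52 and 10.95 and its summit 567 and 568 bp past the inner start. Between both starts lay a WT-only peak, 136957530 to 136957855, with 3.61. The other WT-only peaks were at 136887146 to 136887532 (5.46) and 136915618 to 136915878 (1.97) inside the gene, and at 136839157 to 136839564 (4.05) and 136754418 to 136754769 (6.82) outside it. The cKO-only peaks were at 136884132 to 136884412 inside the gene (3.61) and at 137038191 to 137038805, 77.7 kb away (5.95). Nr5a2 thus had 5 of 12 Gata2WT peaks WT-only and 2 of 9 Gata2cKO peaks cKO-only, and Esrrb 5 of 16 and 4 of 15.

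**Figure D2:**
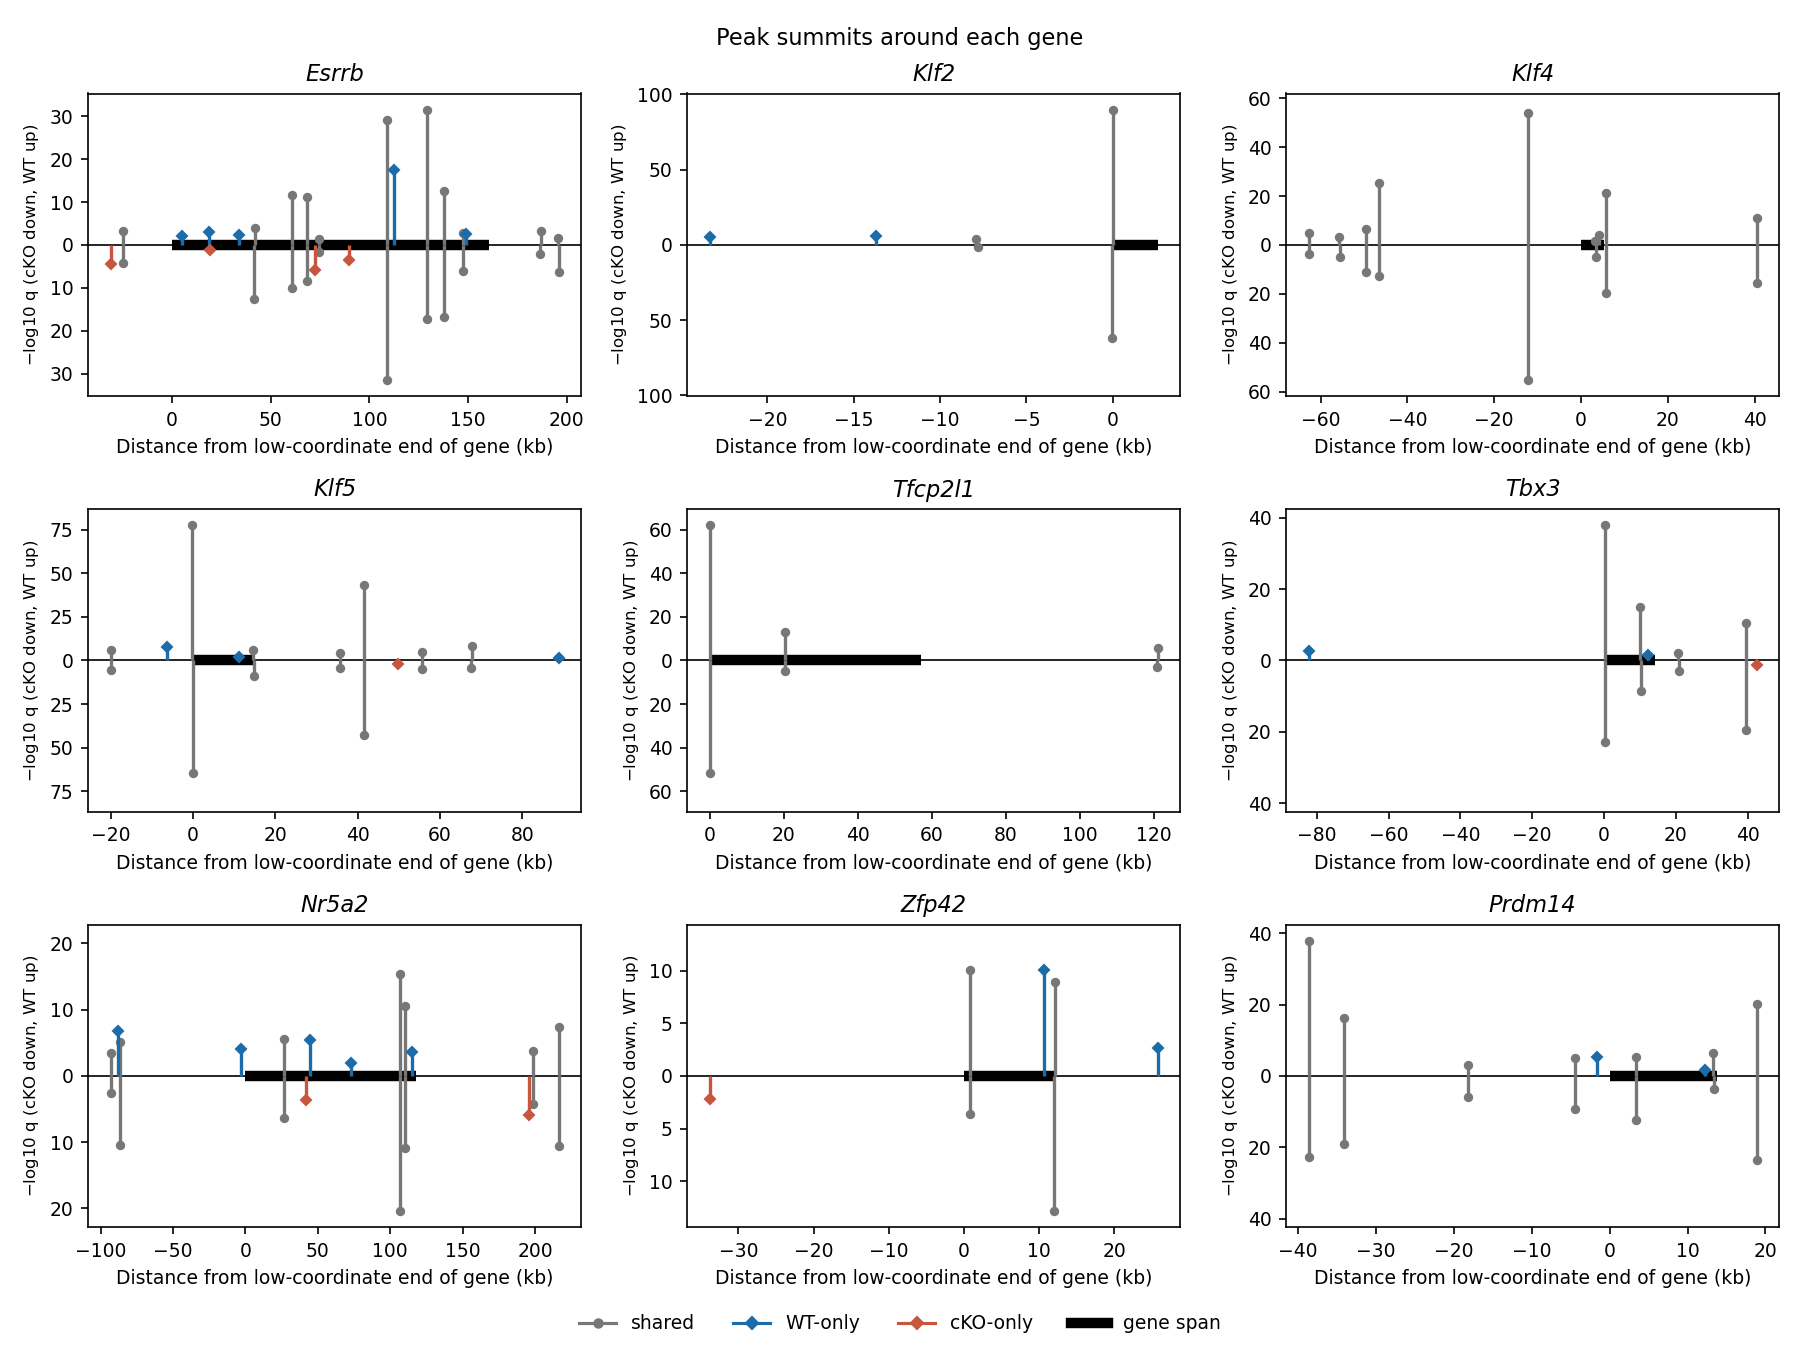
Peak summits around each of the 9 genes, by distance in kb from the low-coordinate end of the gene (x axis) and −log10 q within each list (y axis, Gata2WT upward and Gata2cKO downward); grey circles are shared peaks, diamonds single-list peaks and the black bar the gene span. Esrrb and Nr5a2 have no summit at the ends of the bar, and the tallest diamond is the WT-only Esrrb peak at 17.4.

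The 3 KLF genes, whose proteins share a zinc finger domain and overlap in embryonic stem cells, each had a shared peak over a gene end. Klf2 spans chromosome 8 from 72319062 to 72321654. Its start peak, 72318580 to 72320207, was the strongest of the network, with a −log10 q of 89.9 and 61.6, summit pileups of 149 and 115 fragments and a fold enrichment of 9.52 and 8.0. Both WT-only peaks of Klf2 lay outside the gene, at 72295447 to 72295968 (5.02) and 72305215 to 72305515 (5.93). The second of them overlaps the noncoding gene Gm10282. The Gata2cKO list had 2 Klf2 peaks, both shared.

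Klf4, known as a reprogramming factor, had its strongest open site outside the gene. It spans chromosome 4 from 55527137 to 55532475 on the minus strand. The peak at 55514535 to 55515319, 11.8 kb past the 3′ end, had a −log10 q of 53.8 and 55.3, while the start peak at 55532424 to 55533702 had 21.3 and 19.9. Further past the same end lay shared peaks at 55480191 to 55480713, 46.4 kb away (25.2 and 12.6), and at 55477404 to 55478147, 49.0 kb away (6.59 and 11.15). All 9 Gata2WT and all 8 Gata2cKO peaks of Klf4 met a peak of the other list. Inside the gene 2 Gata2WT peaks, 55530267 to 55530569 and 55530898 to 55531654, met the same Gata2cKO peak, the second, a gene-end peak with 3.97, by 2 bp with summits 835 bp apart. That Gata2cKO peak, 55530365 to 55530899, had 4.98. When both peaks had to be covered by at least 50%, 3 Klf4 peaks became WT-only and 2 became cKO-only.

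Klf5, the third of the KLF genes, spans chromosome 14 from 99298691 to 99313412 and had shared peaks at both ends. The peak at 99298244 to 99299444 had a −log10 q of 77.5 and 64.5, and that at 99313072 to 99313552 had 6.2 and 8.91. A strong shared peak lay 26.4 kb from the gene at 99339783 to 99340650, with 43.4 and 42.6. The WT-only peak at 99292107 to 99292489, 6.2 kb from the gene, had 7.73 and was the third strongest single-list peak of the network. The other WT-only peaks of Klf5 had 1.82 and 1.37, and its cKO-only peak, 99348240 to 99348818, had 2.00.

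Tfcp2l1, a CP2-family factor that links LIF signalling to self-renewal, had few peaks, and all were shared. It spans chromosome 1 from 118627923 to 118685168. The start peak at 118627625 to 118628548 had a −log10 q of 62.0 and 51.4. The peak inside the gene at 118648031 to 118648323 had 13.1 and 4.79, and the peak 63.7 kb away, 118748823 to 118749141, had 5.62 and 2.88. Tbx3, a T-box factor that is also active in many fetal tissues, spans chromosome 5 from 119670534 to 119684724. Its gene-end peak at 119670125 to 119671039 had 37.9 and 22.8, and the peak inside the gene at 119680450 to 119681013 had 15.0 and 8.68. At 119709667 to 119710386, 24.9 kb away, the values were 10.6 and 19.6. The single-list peaks of Tbx3 were weak, with 2.62 and 1.58 for the 2 WT-only peaks and 1.23 for the cKO-only peak.

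Zfp42, the REX1 marker gene, had 3 Gata2WT and 2 Gata2cKO peaks at its gene ends, and was the member with a single-list peak at a gene end. It spans chromosome 8 from 43295067 to 43307009 on the minus strand. Its start peak was shared, at 43306836 to 43307464 over the stretch printed above with the OCT letters, with a −log10 q of 8.90 and 12.9. Its second shared peak was near the 3′ end, at 43295723 to 43296240, with 10.0 and 3.61. The WT-only peak at 43305450 to 43306242 lay inside the gene, 767 bp from the end that holds the start, with its summit 1241 bp past the start. It had a −log10 q of 10.1, with 23 fragments over a local background of 3.38 and a width of 793 bp, and the nearest Gata2cKO peak was 621 bp away. At coding gene ends, 11312 Gata2WT peaks reached a −log10 q of 10, of which 28 were WT-only (0.248%), this one among them. This peak lay just above that cut, and of the 1363 gene-end peaks from 5 to 10, 163 were WT-only (12.0%). It counts as inside the gene when the window is 500 bp. The remaining single-list peaks of Zfp42 lay outside the gene, with 2.62 for the WT-only peak at 43320706 to 43320980 and 2.19 for the cKO-only peak at 43261157 to 43261477.

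Prdm14, a PR-domain factor that germ cells need at their specification, had its strongest peaks outside the gene. It spans chromosome 1 from 13113428 to 13127163. The shared peak at 13073971 to 13075082, 38.3 kb away, had a −log10 q of 37.9 and 22.7, and that at 13131767 to 13132543, 4.60 kb beyond the other end, had 20.2 and 23.6. At its gene end it had a single shared peak, 13126342 to 13127446, with 6.39 and 3.62, below the strongest gene-end peak of each of the other 6 genes. All 7 Gata2cKO peaks of Prdm14 were shared. Its WT-only peaks, 13111667 to 13112070 (5.23) and 13125484 to 13125817 (1.63), lay 1358 and 1346 bp from a gene end, just beyond the 1 kb that defines one. At the other limit, the farthest Nr5a2 peak lay 98.0 kb from the gene with 7.31 in Gata2WT, and a peak 109 kb away on the other side, with 6.30, was not counted.

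**Figure D3:**
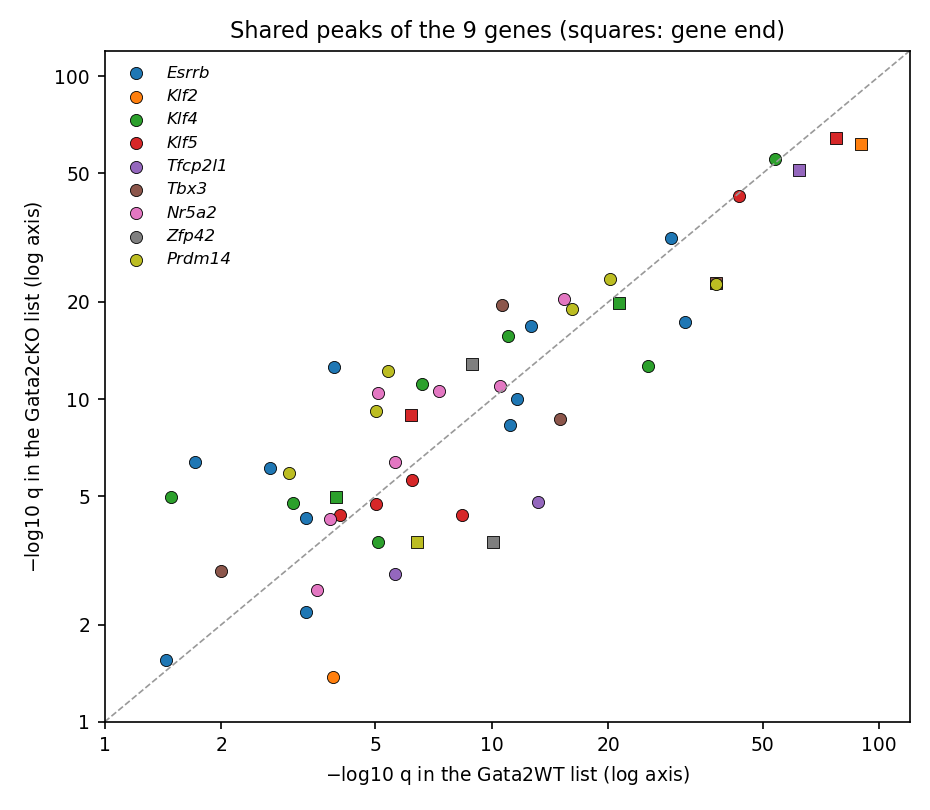
The −log10 q of the 52 shared Gata2WT peaks of the 9 genes (x axis, log scale) and of the overlapping Gata2cKO peak (y axis, log scale), coloured by gene, with squares for gene-end peaks and a dashed line of equal values. Values were not scaled between lists, and the Klf2 start peak (89.9 and 61.6) is farthest to the right. The Gata2WT value was higher at 23 pairs and the Gata2cKO value at 29, beside 22949 and 12385 of all 35334 pairs.

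Most single-list peaks of the network had a −log10 q below 5, but a smaller part of the WT-only peaks than in the whole list. It was 13 of the 21 WT-only peaks, beside 11840 of all 14060, and 7 of the 9 cKO-only peaks, beside 7420 of all 8710. At 10 and over it was 2 of the 21 WT-only peaks, beside 254 of all 14060. Below a −log10 q of 5, 13 of 28 Gata2WT peaks were WT-only (46.4%, Wilson 95% interval 29.5 to 64.2), beside 58.5% of all Gata2WT peaks of that strength. From 5 to 10 it was 6 of 20 (interval 14.55 to 51.9%), beside 20.5%. Away from coding gene ends, 6 of 17 in that range were WT-only (35.3%, 17.3 to 58.7), beside 21.9%. At coding gene ends it was 0 of 3, beside 12.0%. At 10 and over, 2 of 25 Gata2WT peaks were WT-only (8.0%, 2.22 to 25.0), the Esrrb and Zfp42 peaks, beside 1.30%. The intervals treat peaks clustered in 9 genes as independent draws, so they are not a test against the whole list. The Zfp42 peak, at 10.1, sat at the lower edge of this class. Of the 2495 Gata2WT peaks within 10% of its −log10 q, 248 were WT-only (9.94%). For the Esrrb peak, at 17.4, it was 27 of 1576 (1.71%). Split by place, the share at 10 and over was 1 of 18 away from coding gene ends (5.56%, 0.988 to 25.8), beside 2.74% of all such peaks. At coding gene ends it was 1 of 7 (14.3%, 2.57 to 51.3), beside 0.248%, which rests on the Zfp42 peak alone. In the Gata2cKO list the counts were 7 of 24 (29.2%, 14.9 to 49.2) below 5, beside 43.9%, and 2 of 11 (18.2%, 5.14 to 47.7) from 5 to 10, beside 12.5%. None of the 25 Gata2cKO peaks at 10 and over was cKO-only, which allows a share of up to 12.0%, beside 0.802%. The strongest cKO-only peak of the network was that of Nr5a2 at 5.95. A further setting, chosen after the data were seen, counted only peaks of at least 5, with partners taken at the authors' threshold. There, 8 of 45 Gata2WT peaks were WT-only (17.8%, beside 7.61% of all) and 2 of 36 Gata2cKO peaks were cKO-only (5.56%, beside 4.74%). These shares were not split by place or by strength above 5, and no interval was computed for them. The 8 WT-only peaks belonged to Nr5a2 and Klf2 (2 each) and to Esrrb, Klf5, Zfp42 and Prdm14 (1 each).

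**Figure D4:**
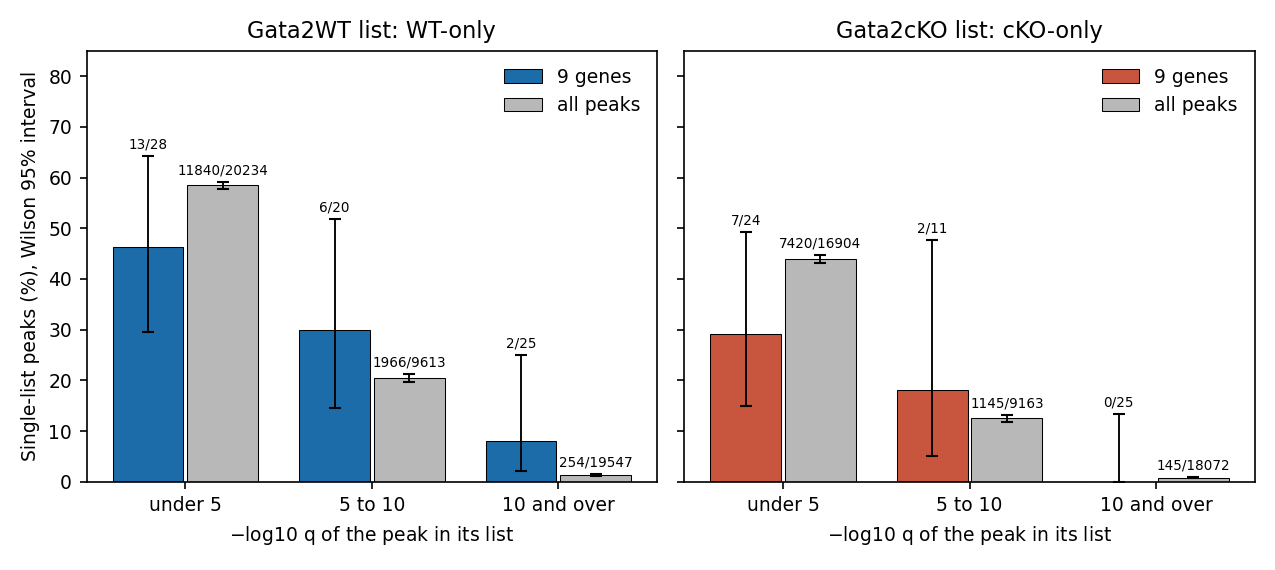
Share of single-list peaks (y axis, %) by −log10 q within the list (x axis) for the 9 genes and for all peaks, with Wilson 95% intervals and counts above the bars; left, WT-only in the Gata2WT list, right, cKO-only in the Gata2cKO list. The shares drop with strength, to 2 of 25 and 0 of 25 peaks of the 9 genes at 10 and over.

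The positions of shared sites were like those of all shared peaks. Over the 52 shared Gata2WT peaks the summits lay a median of 45.5 bp apart, against 46 bp over all 35334, and 2 of the 52, both at Klf4, were more than 250 bp apart, beside 3127 of the 35334. A peak of the other list within 1 kb was found for 4 of the 21 WT-only peaks, at Esrrb (2), Zfp42 and Prdm14, beside 7.03% of all WT-only peaks, and for 1 of the 9 cKO-only peaks, beside 10.1% of all.

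The other genes of the pathway were read against the 62.8% of all coding genes with a gene-end peak in both lists. Of 8 genes of LIF and WNT input, 7 had such peaks in both lists and Lifr in neither. Of 10 genes of the exit and primed state, 8 had them in both and Otx2 and Dnmt3a in neither. Of 12 core factors and cofactors, 7 had them in both and 2 in neither, while Pou5f1 and Tcl1 had them in Gata2WT alone and Nanog in Gata2cKO alone. These 3 gene-end peaks were weak, with a −log10 q of 2.45, 2.51 and 1.46, in the range where 58.5% of all Gata2WT and 43.9% of all Gata2cKO peaks were in a single list. Of 11 paralogs of the network genes, 10 had them in both. The WT-only peak shares of these lists were 32.0%, 23.3%, 34.4% and 30.2% in the same order, and the cKO-only shares 22.7%, 25.8%, 16.0% and 11.8%, beside 28.5% and 19.7% of all peaks. The single genes that follow were named for their excess of single-list peaks, and their counts are small. Sox2 had 6 of 17 Gata2WT peaks WT-only and 1 of 12 Gata2cKO peaks cKO-only, and Tet1 5 of 8 and 1 of 4. Gsk3b, the kinase that marks beta-catenin for degradation, had 4 of 6 and 0 of 2. Ctnnb1, the gene of beta-catenin, had 4 of 12 and 0 of 8. Prdm1 had 7 of 14 and 3 of 11, Esrrg 4 of 11 and 2 of 9, and Klf3 3 of 6 and 1 of 4. Dnmt3b had 3 of 5 and 1 of 3, and Klf9 2 of 6 and 0 of 4. The other direction was seen at Pou3f1, a factor of the primed state, with 0 of 4 WT-only and 2 of 6 cKO-only, and at Nanog, with 0 of 5 and 2 of 7. Among the nuclear receptor paralogs, Esrrg had gene-end peaks with a −log10 q of 4.39 and 5.76 and Esrra with 116 and 122, where Esrrb had none. Nr5a1, like Nr5a2, had none.

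Marker genes of the cells of the fetal ovary were set beside the share over all coding genes, 62.8% with a gene-end peak in both lists and 33.6% in neither. Of 8 germ cell markers, 7 carried a peak at a gene end in both lists and Nanos3 in neither. Of 8 supporting cell markers, 5 had one in both, Amhr2 in Gata2WT alone and 2 in neither. Of 5 interstitial markers, 3 had one in both and Nr2f2 in Gata2WT alone, and of 5 endothelial markers 2 had one in both. None of 4 macrophage markers had one in either list, and 2 of 4 erythroid markers had one in both. The shares for supporting and interstitial cell markers are near that of all genes and do not show whether such cells were present. The WT-only share of Gata2WT peaks was 30.3% for germ cell, 40.5% for supporting cell, 19.2% for interstitial and 20.0% for endothelial markers, beside 28.5% of all peaks. The cKO-only shares in the same order were 17.9%, 15.4%, 14.8% and 13.3%, beside 19.7%. The part of other cells in the peaks of Tbx3, Klf4 and the other network genes was not tested. The genome background solved from the lists was 2.19 for Gata2WT and 2.01 for Gata2cKO, on which the lowest called pileup was 8 for either. These values are only a rough reading of depth.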

How the data were processed

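ATAC-seq was carried out on 4 samples, 2 per genotype, and the genotype label set the groups. The submitters' processing notes name MACS2 2.2.6, Bowtie2 2.3.5.1, Trimmomatic 0.39, bedtools 2.29.2, Picard 2.23.0 and SAMtools, with GRCm38 (mm10). For parameters, the Tn5 shift and the way replicates were combined, the notes used here say nothing. In the deposited lists each peak has a fold enrichment (a ratio of summit pileup to local background), a −log10 p, a −log10 q and a score (10 times the −log10 p, without its decimals), all as the authors' peak caller gave them. Only the −log10 q, the −log10 p and the fold were used.

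Rows with the same interval were merged to the row with the highest −log10 p, leaving 49394 Gata2WT peaks of 58357 rows and 44139 Gata2cKO peaks of 52236 rows on the 19 autosomes and X. The pileup and the local background were solved from the fold and the −log10 p, and a whole pileup within 0.001 was found for 99.996% and 99.9955% of peaks. Pileups are given in fragments here, but the notes do not say whether the peak caller counted fragments or single reads. Peaks were given to genes by the RefSeq table of GRCm38.p6, with distances from the edge of the peak. Overlap, gene assignment and pileups were tested on simulated data. Python 3.11.15, pandas 2.3.3 and SciPy 1.17.1 were used. Read numbers were not analysed here. The member genes, gene lists, motifs and tests were chosen with earlier results of these data known. The text names all 9 members with every gene-end and single-list peak and their strongest shared distal peaks, and, of other pathway genes, at most 4 in each direction and list, first those whose gene-end status differed, then those with the largest excess of single-list peaks (at least 2). Esrra and Nr5a1, the marker genes, the gene-end values of Esrrg and the genes without a gene-end peak were named after their values were seen. Other settings tried were stricter overlap, summit distance, higher thresholds, lists of equal length, other windows and distances, noncoding genes as nearest genes and unmerged rows.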

Additional observations from a re-analysis of the deposited data

How the results depend on the processing

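Over 11 other settings the network genes had 15 to 30 WT-only peaks (21 in the report). The highest count was 30 of 73 when both peaks had to be covered by at least 50% (41.1%, beside 35.5% of all peaks). The lowest was 15 of 45 with a −log10 q of at least 5 in both lists (33.3%, beside 20.2%). With the nearest gene among all genes it was 16 of 45 (35.6%, beside 28.5%), and with 20 kb 17 of 49 (34.7%, beside 28.5%). With summits within 250 bp it was 23 of 73 (31.5%, beside 34.6%). Genes with both lists at a gene end numbered 6 or 7 (7 in the report), 6 with a −log10 q of at least 5 in both lists. The cKO-only count of 9 moved to 17 of 60 when both peaks had to be covered by at least 50% (28.3%, beside 27.9% of all peaks). It moved to 4 of 35 with a distance of 20 kb (11.4%, beside 19.7%). With the nearest gene taken among all genes of the table, which gives fewer distal peaks to the 9 genes, it was 5 of 33 (15.2%, beside 19.7%). Under the other 8 settings the cKO-only count lay between 6 and 11. With equal list lengths the counts were 17 WT-only (25.8%, beside 23.1% of all peaks) and 11 cKO-only (18.3%, beside 22.8%). Under alternatives chosen after seeing the data, with partners at the authors' threshold, fewer peaks were counted. A −log10 q of at least 2 gave 15 WT-only (23.8%, beside 22.5% of all) and 6 cKO-only peaks (10.9%, beside 15.7%). At least 5 gave 8 (17.8%, beside 7.61%) and 2 (5.56%, beside 4.74%). Of the counts for single genes over all these settings, those chosen after seeing the data included, 180 were within 1.5 times their value in the report and 54 were not. The 180 include genes with no single-list peak under either setting. No paired analysis was possible because each list pools the replicates of a genotype, and leaving out a replicate was not run for the same reason. The lowest pileup called, 8 fragments over the genome background, sets what these lists can show.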
